A study of Mus musculus with 4 samples.

Results

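The nuclear genes for the enzymes of mitochondrial oxidative phosphorylation were followed through a table of RNA-RNA contacts in spermatogonial stem cells of the mouse. Members were chosen by name only: the RNAs whose symbols begin with Nduf (complex I), Uqcr (complex III), Cox followed by a digit from 4 to 8 (complex IV) or Atp5 (ATP synthase, complex V), plus Sdha, Sdhb, Sdhc and Sdhd (complex II). The rule found 73 of the 13318 listed RNAs. They fall into 27 of complex I, 4 of complex II, 8 of complex III, 13 of complex IV, 14 of complex V, 5 assembly or accessory factors (Ndufaf2, Ndufaf4, Ndufaf7, Atp5s, Atp5sl) and 2 pseudogenes that carry a family name (Atp5k-ps2, Uqcrh-ps1). The reference gene table holds 115 names that fit the rule, 96 of them protein-coding genes.

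Wild-type spermatogonial stem cells (labelled WT, 2 control libraries) were compared with cells of the same labelled type whose genotype entry reads Differentiation (2 libraries). Both groups were made into libraries by RIC-seq, in which formaldehyde holds RNA and protein in place, RNA ends that lie near each other are joined inside the cell, and each joined (chimeric) fragment is read as a contact between its RNAs. The agent and the time of differentiation, the strain and the age of the animals, and whether the replicates were separate cultures are not given in the sources used here. Any p-value therefore reflects library-to-library spread alone, possibly of technical origin.

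Oxidative phosphorylation passes electrons from NADH through complex I, or from succinate through complex II, by way of complexes III and IV to oxygen, and the proton gradient built on the way drives ATP synthase. Most subunits are encoded in the nucleus, translated in the cytosol and imported, and a few core subunits of complexes I, III, IV and V come from the mitochondrial genome. Spermatogonial stem cells are known to rely largely on glycolysis, and use of oxidative phosphorylation rises as germ cells differentiate. These genes have also left many processed pseudogenes in the mouse genome, copies of the spliced mRNA inserted elsewhere. Their sequence can be close enough to the parent mRNA that short reads are assigned to either.

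Each value is a whole number of chimeric reads for a pair of RNAs in a library. Summed over the listed pairs, control 1 held 1209031, control 2 held 1400011, differentiation 1 held 793129 and differentiation 2 held 1155923. Every listed pair had at least 1 count in each of the 4 libraries, so contacts present in some libraries only were not analysed here. Among listed markers, 3 of 9 tested genes of undifferentiated spermatogonia had lower contact totals in differentiation (Shisa6, Gfra1, Foxo1). Of 9 tested genes of differentiating and meiotic germ cells, 4 were higher (Sycp1, Dmc1, Smc1b, Hormad1) and 1 was lower (Dmrt1). Kit and Stra8 of that list did not pass (adjusted p = 0.801 and 0.458 by edgeR's quasi-likelihood test). Over all RNAs tested, 5.44% were higher and 6.75% lower. Markers of other cells moved too. Of the Sertoli list, 8 of 10 genes were listed and 5 of 7 tested were lower, with a summed level of 1415 and 1591 CPM of all listed counts in the controls against 947 and 909 in differentiation, and Amh and Rhox5 were not listed. Of the fibroblast and feeder list, 8 of 10 were listed and 4 of 8 tested were lower, with sums of 2251 and 2116 against 1547 and 1815, and Dcn and Lum were not listed. Leydig and peritubular markers (4 of 7 listed, Insl3, Hsd3b1 and Des not) summed to 299 and 312 against 325 and 334, and immune markers (3 of 5 listed, Ptprc and Lyz2 not) to 14.1 and 19.3 against 80.7 and 6.92. The part of other cell types in the results that follow was not tested. A contact total also cannot tell fewer cells of a type from less RNA per cell, or a change in RNA level from a change in contacts.

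The promoters of 4 members are shown because these members carry the results below: 3 rose with differentiation (Cox5b, Uqcr11, Cox7b2), and Atp5c1 is the ATP synthase subunit with most counts. Each line holds the 250 bases before the transcription start, 5′ to 3′ on the gene's strand, from RefSeq on GRCm38.p6. Capitals mark a match to the NRF1 motif (10 bases, 1 of them free) or an ETS motif (CCGGAAGT), letters bound by known activators of respiratory genes. Cox5b lies at chr1:36691237-36691486 on the plus strand, Uqcr11 at chr10:80406822-80407071, Cox7b2 at chr5:71548206-71548455 and the start of Atp5c1 nearer the gene body at chr2:10080433-10080682, these 3 on the minus strand.
Cox5b: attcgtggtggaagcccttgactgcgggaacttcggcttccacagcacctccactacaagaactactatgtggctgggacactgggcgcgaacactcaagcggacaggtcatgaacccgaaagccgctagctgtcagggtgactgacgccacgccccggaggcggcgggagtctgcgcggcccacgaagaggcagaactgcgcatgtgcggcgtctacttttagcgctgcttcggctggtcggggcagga
Uqcr11: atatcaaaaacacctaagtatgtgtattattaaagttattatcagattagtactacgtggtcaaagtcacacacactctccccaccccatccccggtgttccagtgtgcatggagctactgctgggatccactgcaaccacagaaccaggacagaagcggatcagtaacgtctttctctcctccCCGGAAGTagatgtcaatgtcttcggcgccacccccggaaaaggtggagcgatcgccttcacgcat
Cox7b2: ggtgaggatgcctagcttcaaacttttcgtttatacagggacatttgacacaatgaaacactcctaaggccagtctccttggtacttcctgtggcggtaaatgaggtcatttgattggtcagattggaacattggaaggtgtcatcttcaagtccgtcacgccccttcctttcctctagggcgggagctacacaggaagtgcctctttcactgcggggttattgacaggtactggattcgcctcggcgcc
Atp5c1: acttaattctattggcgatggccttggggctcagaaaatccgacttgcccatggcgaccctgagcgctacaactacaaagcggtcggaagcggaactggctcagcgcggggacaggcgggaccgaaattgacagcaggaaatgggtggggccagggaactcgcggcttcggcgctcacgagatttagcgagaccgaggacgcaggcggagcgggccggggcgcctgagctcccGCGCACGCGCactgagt

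The ETS match of Uqcr11 begins at position -66 and the NRF1 match of Atp5c1 at -17, counted from the transcription start. Neither motif is written in the window of Cox5b or Cox7b2, or in that of the other Atp5c1 start (chr2:10080511-10080760, not shown). Of the 73 members, 61 matched a promoter entry. The NRF1 motif, searched on both strands, stood in 11 of these 61 (18.0%), against 4.23% of all 27025 genes with an entry and 5.84% of the 17492 protein-coding ones. The 11 were Atp5c1, Atp5h, Atp5k, Cox6a1, Ndufa5, Ndufa8, Ndufa11, Ndufaf4, Ndufs6, Sdha and Sdhd, of which Ndufa5, Ndufa8 and Ndufaf4 were too low to test and no other passed the test of contact totals described below. ETS letters stood in 3 (4.92%, against 3.23% of all genes and 4.26% of protein-coding ones). A YY1 motif (AAGATGGCG) stood in 2 (3.28%, against 0.710% and 0.840%) and an ERR motif (TCAAGGTCA) in 1 (1.64%, against 0.422% and 0.360%). None of these motifs contains another. The median GC content was 56.0% over the members' promoter entries and 52.4% over all entries. These matches describe the letters of the windows only.

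The members were thinly covered. They took part in 209 of 56636 listed pairs, 10 within an RNA (both joined pieces from the same RNA) and 199 between different RNAs. Summed counts over the 4 libraries ran from 5 to 1964 with a median of 48, 22 members had a single listed pair, and 20 had a sum under 20. Member pairs held 0.190% (95% Wilson interval 0.183 to 0.198) and 0.172% (0.166 to 0.179) of all counts in the controls, and 0.231% (0.221 to 0.242) and 0.293% (0.283 to 0.303) in differentiation. Both differentiation libraries lie above both controls, and the intervals cover counting error only. The mean shares were 0.181% ± 0.0127 and 0.262% ± 0.0437 (SD, n = 2), and without the 3 members of largest sum (Ndufs4, Atp5c1, Atp5b) they were 0.110% and 0.174%.

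Most counts of the members went to 3 kinds of partner. Contacts within the same RNA held 45.4% and 44.6% of member counts in the controls and 43.8% and 46.0% in differentiation. A few RNAs that contact a large part of the transcriptome, called hub RNAs here, held 27.5% and 28.8%, then 26.0% and 20.7%. They are Gm42418 (named Rn18s-rs5 in the reference), Gm26917, Slc9a9, Malat1 and Neat1. Pseudogenes held 17.5% and 15.8% in the controls and 20.03% and 22.9% in differentiation. Genes whose span holds such a pseudogene took 3.81% to 5.17%, and all other partners 5.23% to 7.001%. The share with pseudogenes was higher in both differentiation libraries than in either control, while within-RNA shares of the groups overlapped. Over all between-RNA counts, pairs with a pseudogene held 25.2% and 28.6% in the controls and 27.1% and 31.0% in differentiation, which overlap. That share is not the same measure as the members' share. It counts the pairs of the hub Gm42418, classed as a pseudogene in the reference, and its total leaves out within-RNA counts. A share over all RNAs on the members' measure was not computed.

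**Figure D1:**
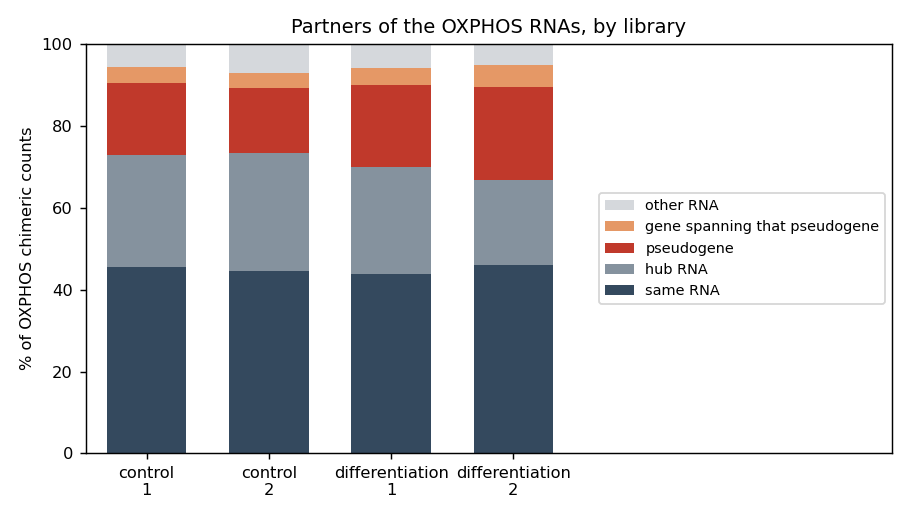
Share of the members' chimeric counts (%, from 0) by class of partner in each of the 4 libraries, 1 stacked bar per library. The same RNA holds 43.8% to 46.0% in every library, and the pseudogene segment is largest in differentiation 2, at 22.9%.

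Hub RNAs were the most frequent partners: 61 of the 73 members had one and 25 had nothing else. Gm42418 paired with 42 members (945 counts), Gm26917 with 38 (792) and Slc9a9 with 37 (624). Malat1 paired with 6, Neat1 with 4, and no member had a listed pair with Gm10800, a repeat-derived RNA with many contacts elsewhere. Of the between-RNA counts of members, hubs held 50.4% and 52.0% in the controls and 46.4% and 38.4% in differentiation. Over all between-RNA counts the same hubs and Gm10800, pairs of hubs with each other included, held 69.8% and 70.9%, then 64.2% and 62.0%. None of the 209 member pairs joined a member to any of the 15 listed mitochondrially encoded RNAs. No listed pair joined different subunits either. The only 2 listed pairs between members were Atp5k with Atp5k-ps2 and Uqcrh with Uqcrh-ps1, each a gene and a pseudogene of its own family. Pairs without a count in every library are not listed, and the number to be expected at this coverage was not computed.

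Within-RNA contacts were rare in this family. Of its 71 protein-coding members, 10 (14.1%) had a listed within-RNA pair, against 41.3% of the other listed protein-coding RNAs. The genes of the 10 spanned a median of 22.6 kb and those of the other 61 a median of 7.13 kb. Among other protein-coding RNAs the medians were 61.0 kb with a within-RNA pair and 23.4 kb without. The ranges are wide: the 10 run from 5.26 kb (Ndufv1) to 105 kb (Cox7b2). Of these, 4 share bases with another annotated gene, and reads from such genes cannot be told apart without knowing how strand was used in counting: Atp5c1 (Gm23608), Sdhc (Gm46172), Ndufs1 (Ino80dos) and Ndufv2 (Ankrd12, Gm23264).

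The contact total of an RNA, the sum of its pairs in a library, was then compared between the groups. Of the 73 members, 53 passed the filter on low counts, and 4 rose and 0 fell at an adjusted p under 0.05 by edgeR's quasi-likelihood test over all 10993 RNAs tested. The share of all RNAs that rose was 5.44% and that fell was 6.75%, so 4 of 53 is close to the background of rises. Among the 4, Atp5s passed the filter through its differentiation libraries only. At an unadjusted p under 0.05, 10 of the 53 members passed (18.9%), all of them above 0, against 27.0% of all RNAs in either direction. DESeq2 called 3 members higher and 0 lower, and 496 and 584 of all RNAs. The median log2 change, differentiation over control, was 0.48 over the 53 members and -0.00 over all RNAs, and 44 of the 53 were above 0. In 25 members both differentiation libraries lay above both controls and in 2 both lay below, where 26.1% and 29.1% of all RNAs did so. Without differentiation replicate 2 the members' median was 0.22, and 0 members were called when either control was left out.

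**Figure D2:**
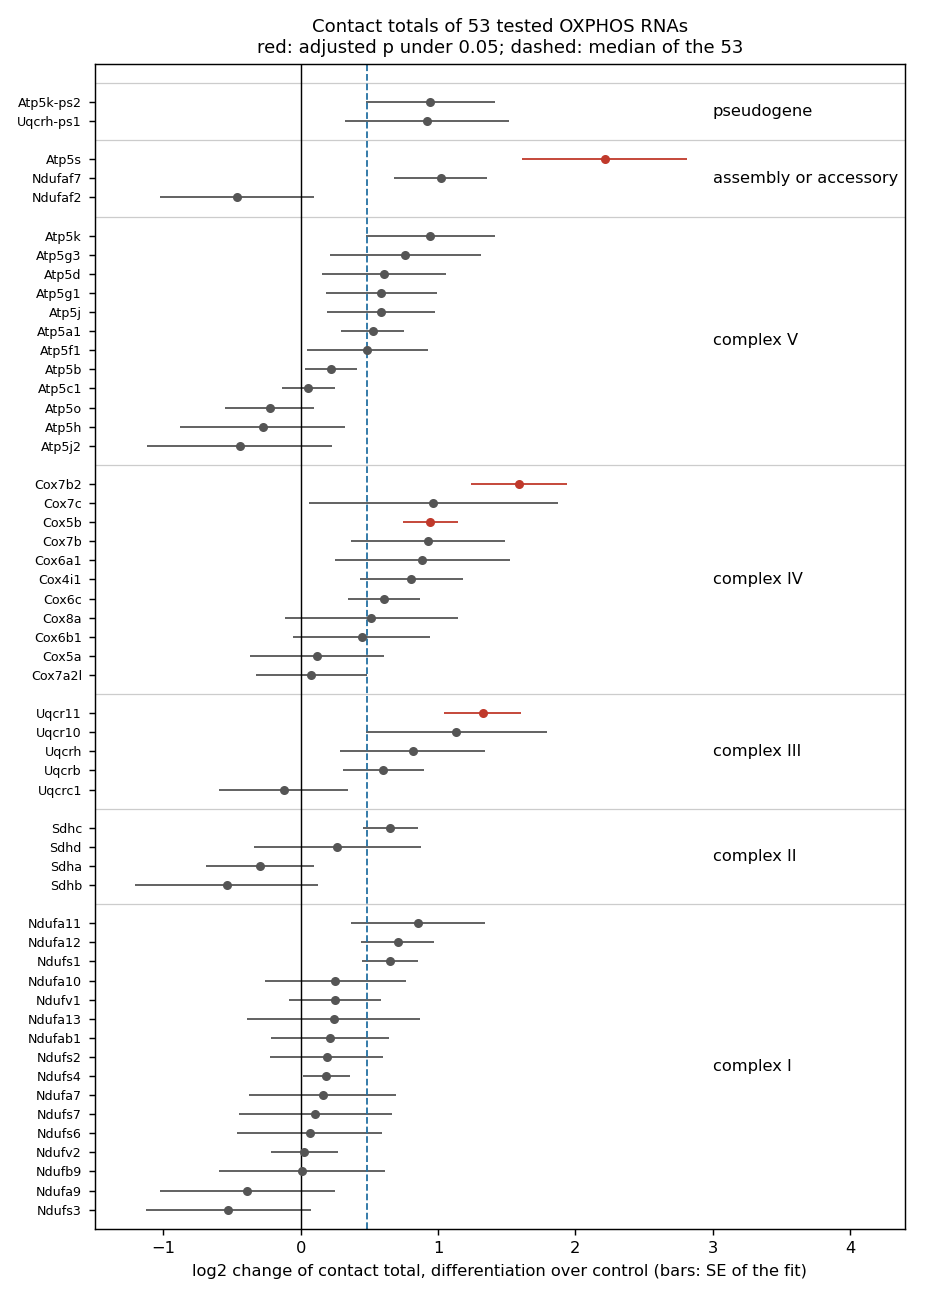
Log2 change of the contact total, differentiation over control, for the 53 tested members grouped by complex; bars are the SE of the fit, red marks an adjusted p under 0.05 and the dashed line is the median of 0.48. All 11 tested members of complex IV lie above 0, whereas those of complexes I, II, III and V and the assembly factors lie on both sides.

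Complex I, the NADH dehydrogenase, had 16 tested members, none called by edgeR's quasi-likelihood test (2 at an unadjusted p under 0.05), with a median log2 change of 0.19. Ndufs4, an accessory subunit of the NADH-oxidising arm, had the largest sum of all members. Its total was 280 and 258 CPM (counts scaled to a common library size by edgeR) in the controls and 265 and 347 in differentiation. The groups overlapped, and the log2 change was 0.19 (SE 0.17, adjusted p = 0.528). Ndufs1, the largest subunit of that arm and holder of several of its iron-sulphur clusters, had 59.0 and 62.5 CPM in the controls and 84.0 and 106 in differentiation. Both differentiation libraries were higher, with a log2 change of 0.65 (SE 0.20, adjusted p = 0.0612), and it passed with column totals only (0.0386) and the default low-count filter of edgeR (minimum count 10, minimum total 15; 0.0435). Ndufs3, a core subunit, was among the 3 lowest changes, at -0.53 (adjusted p = 0.628), with 10.4 and 4.53 CPM in the controls and 4.08 and 5.94 in differentiation.

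Complex II, succinate dehydrogenase, had all 4 members tested, none called (1 at an unadjusted p under 0.05), and a median of -0.01. Sdhc, a membrane anchor of the complex, had 73.5 and 66.0 CPM in the controls and 97.8 and 120 in differentiation. The groups did not overlap, with a log2 change of 0.65 (SE 0.20, adjusted p = 0.0532), and it passed with RLE scaling (0.0467), column totals only (0.0342) and the default filter (0.0377). Sdhb, the iron-sulphur subunit, had the lowest value of all tested members, -0.54 (SE 0.67, adjusted p = 0.659), on 5.21, 9.07, 1.63 and 7.56 CPM in control 1, control 2, differentiation 1 and differentiation 2. Its groups overlapped.

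Complex III, which hands electrons to cytochrome c, had 5 tested members, 1 of them called higher, and a median of 0.82. The 4 above 0 took most of their counts from pseudogenes: Uqcr11 100%, Uqcr10 91.3%, Uqcrb 78.8% and Uqcrh 37 of 53. Uqcrc1, with hub partners only, was at -0.12. Over the whole table, pairs of a pseudogene with an RNA other than a hub had a median of 0.90. Uqcr11, a very small subunit, rose from 19.1 and 17.1 CPM to 42.4 and 48.0 (log2 change 1.32, SE 0.28, adjusted p = 0.0113). Both differentiation libraries lay above both controls, and all 208 of its counts came from a single partner, the pseudogene Gm16418. Without control replicate 1 or 2 the adjusted p was 0.108 or 0.201.

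Complex IV, cytochrome c oxidase, had 11 tested members, 2 called higher, all 11 above 0, and a median of 0.81. Pseudogenes held most counts of Cox5b, Cox6c (59.1%), Cox7a2l (91.1%), Cox7b (64.4%) and Cox7c (100%). Pairs of that class had a median of 0.90 over the whole table. The remaining tested members had no pseudogene partner outside the hubs. Cox7a2l and Cox8a reached values below 0 when a library was left out. Cox5b, a subunit on the matrix side, rose from 51.5 and 48.4 to 90.5 and 101 CPM (log2 change 0.94, SE 0.20, adjusted p = 0.0105). Of its counts 98.3% came from its pair with the pseudogene Gm11273, named Cox5b-ps in the reference. Cox7b2, a relative of Cox7b expressed mainly in testis, rose from 11.6 and 8.56 to 31.0 and 29.7 CPM (1.59, SE 0.35, adjusted p = 0.0127). Its counts came from the RNA itself and from hub RNAs, and without the pairs of Gm42418 and Gm26917 the change was 1.09 (adjusted p = 0.146). Left without control 1 or 2, Cox5b had an adjusted p of 0.119 or 0.201 and Cox7b2 of 0.0953 or 0.220. In sign the whole complex held under each scaling tried, but the median of all RNAs itself moved to 0.16 when libraries were scaled by column totals only, and the gap between the members and all RNAs was then 0.49.

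Several subunits of complexes IV and V exist as alternative isoforms, some of them restricted to certain tissues. Beside Cox7b2, described above, the complex IV isoforms tested were widely expressed ones: Cox4i1 (log2 change 0.81, adjusted p = 0.195), Cox6a1 (0.89, 0.413), Cox6b1 (0.45, 0.618) and Cox8a (0.52, 0.652) by edgeR's quasi-likelihood test. Cox7a2l, a relative of the Cox7a subunits that takes part in joining complexes, was at 0.08 (adjusted p = 0.934). Cox4i2, Cox6a2, Cox6b2, Cox7a1, Cox8b, Cox8c and Ndufa4l2 had no listed pair, and Cox7a2 and Ndufa4 were listed but too low to test. Of the 3 genes for subunit c of ATP synthase, Atp5g1 was at 0.59 (adjusted p = 0.391), Atp5g3 at 0.76 (0.415) and Atp5g2 was not listed. None of these isoform sets passed the test in any member.

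Complex V, ATP synthase, had 12 tested members, none called (1 at an unadjusted p under 0.05), and a median of 0.50. Atp5c1, the shaft of the rotary motor, had 162 and 130 CPM in the controls and 133 and 169 in differentiation, which overlap (0.06, SE 0.19, adjusted p = 0.895). Atp5b, the catalytic subunit, had 80.4 and 93.2 against 96.2 and 106 CPM (0.22, SE 0.19, adjusted p = 0.500). Its groups did not overlap, by a small margin. Atp5a1, the other large subunit of the catalytic head, was at 37.6 and 39.3 against 53.8 and 56.7 CPM (0.52, SE 0.23, adjusted p = 0.164).

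Among the factors outside the complexes, 1 of 3 tested rose. Atp5s, called Dmac2l in the reference, rose from 2.89 and 1.51 to 9.78 and 10.8 CPM (log2 change 2.21, SE 0.60, adjusted p = 0.0341). This was the largest change of any tested member. It rests on 40 counts of a single within-RNA pair, 5 and 3 in the controls and 12 and 20 in differentiation. Scaled to library size, both controls lay under the low-count filter, so Atp5s was tested through its differentiation libraries only. The size of its change carries that selection. Its adjusted p was 0.133, 0.311 and 0.0718 without control 1, control 2 and differentiation 2. Ndufaf7, a methyltransferase needed to build complex I, was at 1.02 (SE 0.34, adjusted p = 0.0751), with 12.2 and 13.1 against 23.6 and 27.5 CPM. Ndufaf2, a complex I assembly factor related to Ndufa12, was at -0.46 (adjusted p = 0.653). The 2 member pseudogenes share their only pair with Atp5k and Uqcrh and so repeat counts of these genes.

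**Figure D3:**
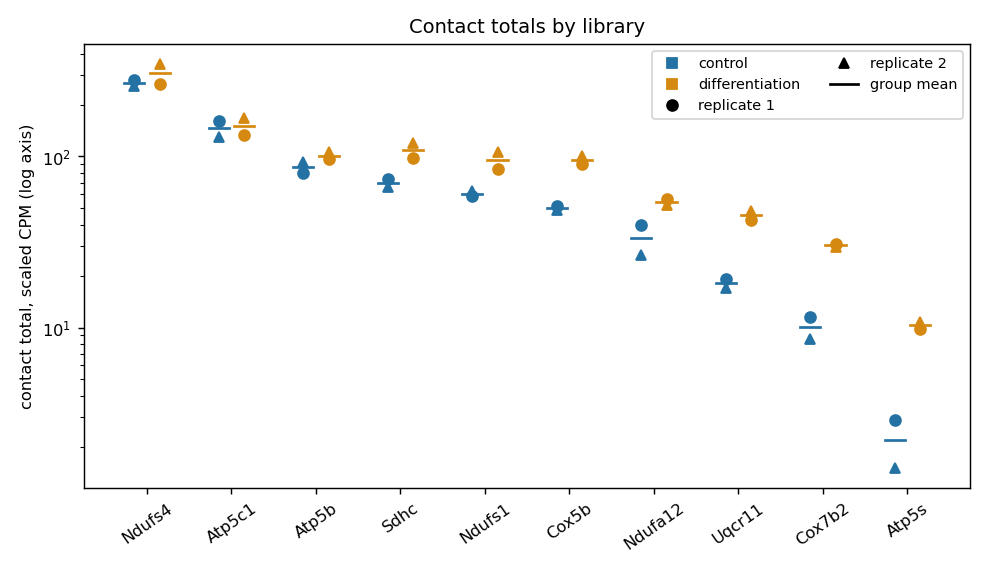
Contact totals (scaled CPM, log axis) of 10 members in each library; circles are replicate 1, triangles replicate 2 and short lines the group means. Cox5b, Uqcr11, Cox7b2 and Atp5s show the groups apart, while Ndufs4 and Atp5c1 overlap.

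Contacts within an RNA were tested apart from contacts between RNAs. All 10 within-RNA pairs of members were tested; 3 rose and 0 fell by edgeR's quasi-likelihood test, 7 had an unadjusted p under 0.05, all above 0, against 39.0% of all within-RNA pairs in either direction. DESeq2 called 2 of the 10 higher and 0 lower, and over all pairs, within and between, 781 higher and 532 lower. Over all 4439 within-RNA pairs, 12.3% rose and 3.33% fell, and the median was 0.44, against 0.80 over the members' 10. In 8 of the 10 both differentiation libraries lay above both controls, and in 0 below, where 46.0% and 14.0% of all within-RNA pairs did. Ndufs1 rose from 76.7 and 80.3 to 139 and 179 CPM on the scale of pairs (1.02, SE 0.26, adjusted p = 0.0260). Sdhc rose from 97.8 and 87.5 to 161 and 207 CPM (0.99, SE 0.25, adjusted p = 0.0268). Atp5s rose from 4.21 and 2.15 to 17.1 and 19.2 CPM (2.50, SE 0.64, adjusted p = 0.0284). As with its total, this pair passed the low-count filter through differentiation only. All 3 are pairs in which the differentiation libraries stand clear of the controls, and all 3 calls were lost without control 2 or without differentiation 2, where 0 within-RNA pairs of members were called. Without control 1 only Atp5s kept its call, at 1 of 10.

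The other 7 within-RNA pairs did not pass. Ndufaf7 was at 1.31 (adjusted p = 0.0578), Cox7b2 at 1.36 (0.117), Ndufs4 at 0.61 (0.105) and Atp5c1 at 0.50 (0.235), each with the groups apart. Ndufv1, at 0.47 (0.639), and Ndufv2, at 0.30 (0.623), encode subunits of the NADH-oxidising module. Ndufa12, an accessory subunit, was below 0, at -0.27 (0.813), with 42 and 22 counts in the controls and 13 and 24 in differentiation.

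Of the 199 between-RNA pairs of members, 90 were tested; 5 rose and 1 fell by edgeR's quasi-likelihood test, against 1.30% of all 27249 between-RNA pairs that rose and 2.25% that fell. The median change was 0.67 over the 90 and -0.05 over all between-RNA pairs, and 69 of the 90 were above 0. The groups were apart with differentiation higher in 41 and lower in 8 of the 90, where 20.4% and 27.4% of all between-RNA pairs were. Of the 5 that rose, 3 join a member to a pseudogene, 1 to the gene that holds such a pseudogene and 1 to a hub RNA. DESeq2 called 4 higher and 0 lower; none was called higher without control 2, and the calls of both Ndufa12 pairs were also lost without control 1.

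The pseudogene pairs were the largest block of between-RNA contacts outside the hubs. In all, 27 pseudogenes paired with 25 members, and 22 of the 27 had no other listed partner. That is common in this table, where 734 of 1080 pseudogene RNAs with between-RNA pairs (68%) have a single one. Of the 27, 25 lie on another chromosome than the member, and their median length is 497 bp (283 to 11942). The reference names 6 of them as copies of the member's own family: Cox5b-ps, Ndufa12-ps, Ndufa11b, Cox6c2, Atp5k-ps2 and Uqcrh-ps1. Whether these reads join 2 molecules or are pieces of 1 mRNA aligned to a gene and its copy was not tested, since the reads were not used here.

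Among them Uqcr11 with Gm16418 (33 and 34 counts in the controls, 52 and 89 in differentiation) rose by 1.61 in log2 (SE 0.33, adjusted p = 0.00758). Cox5b with Gm11273 (87 and 95, then 108 and 185 counts) rose by 1.23 (SE 0.25, adjusted p = 0.00854). Ndufa12 with Gm15920, named Ndufa12-ps (11 and 14, then 26 and 35 counts), rose by 1.85 (SE 0.45, adjusted p = 0.0216). In each of these 3 both differentiation libraries exceed both controls in counts, although the differentiation libraries hold fewer counts in all. Of 21 tested pseudogene pairs of members, 3 rose and 0 fell, 9 had an unadjusted p under 0.05 (42.9%, against 40.1% of the class), and the median was 1.04. Over all 878 tested pairs that join a pseudogene to an RNA other than a hub, 12.1% rose and 0.00% fell, the median was 0.90, and the groups were apart with differentiation higher in 64.2% and lower in 3.08%, against 13 and 0 of the members' 21. The members' pseudogene pairs are thus near the background of their class.

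Ndufa12 also rose with Rabgef1 (11 and 16, then 26 and 36 counts; 1.76, SE 0.44, adjusted p = 0.0265), a guanine nucleotide exchange factor. Ndufa12-ps lies inside Rabgef1 (chr5:130171819-130214342 on GRCm38.p6 holds chr5:130188393-130188888), and the counts of the 2 pairs differ by at most 2 in a library. The same holds for 5 other members: Cox6c with Gm16399 and Car1, Atp5b with Gm4707 and Smchd1, Uqcrb with Gm2962 and Fcrla, Ndufab1 with Gm4459 and Cfap46, and Ndufa3 with Gm29487 and Srgap2. In these 6 sets the paired counts differ by at most 6 in any library, so reads of the pseudogene and of the gene around it cannot be told apart, and both enter the member's total. Leaving out the pseudogene partners and the genes around them, an alternative chosen after seeing the data, left 38 tested members, 2 called higher and a median of 0.22.

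Cox7b2 with Gm42418 rose from 1 and 1 count to 12 and 11 (3.93, SE 0.82, adjusted p = 0.00953). The ratio of summed counts, on the scale of pairs, was 16.98 (95% exact interval 4.20 to 149, counting error only). Both controls are at the lowest count the table can hold and under the low-count filter, so the pair was tested through differentiation only. The ratio and its interval carry that selection. The total of Gm42418 itself did not rise (-0.26, adjusted p = 0.255). Among 22 tested pairs of members with Gm42418 this was the only one called. Of all 6261 tested pairs with Gm42418, 61 were higher and 65 lower by edgeR's quasi-likelihood test. At an unadjusted p under 0.05 were 2 of the 22, against 13.3% of all. The median was 0.58 over the 22, against 0.05 for all RNAs paired with Gm42418. For Gm26917 the medians were 0.44 over 15 member pairs and -0.23 over all, and for Slc9a9 0.50 over 13 and 0.03 over all, with no member pair of either called (3 of 15 and 2 of 13 at an unadjusted p under 0.05, against 14.2% and 10.2% of all pairs of these hubs). The total of Gm26917 fell (-0.50, adjusted p = 0.0296).

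The only member pair that fell was Ndufs4 with Arl15, which encodes a small GTPase of the ARF-like family and lies 130 kb from Ndufs4 on chromosome 13. It had 18 and 23 counts in the controls against 2 and 1 in differentiation (-3.11, SE 0.76, adjusted p = 0.0229), and the ratio of summed counts, control over differentiation, was 9.26 on the scale of pairs (95% exact interval 2.95 to 46.7). The groups are far apart, on 44 counts in all. Both differentiation libraries lay under the low-count filter, so the pair was tested through its controls only, and the ratio carries that selection. The interval covers counting error only, and 1 is the lowest count the table can hold. Arl15's own total fell as well (-1.05, adjusted p = 0.00205), from 369 and 452 to 210 and 187 CPM. The call was lost without control 2 (adjusted p = 0.0554) and without differentiation 2 (0.130), and DESeq2 gave it no adjusted p.

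For Ndufs4 the within-RNA change (0.61) did not pass the test, and its contacts with other RNAs fell. Its controls held 422 and 437 within-RNA counts and its differentiation libraries 304 and 611, while its between-RNA counts were 62 and 76, then 21 and 31. Between-RNA counts were lower in both differentiation libraries, also without Arl15 (44 and 53, then 19 and 30). These counts are not scaled. All between-RNA counts summed to 617853 and 708543 in the controls and 415201 and 544193 in differentiation. The fall without Arl15 was not tested, and Slc9a9 gave 19 of the 44 in control 1 and 2 of the 53 in control 2. In totals of between-RNA pairs alone, where 6.56% of 9648 RNAs rose and 6.47% fell, Ndufs4 fell, with a log2 change of -0.96 (SE 0.27, adjusted p = 0.0284). In the same fit Ndufa12 rose by 1.60 (adjusted p = 9.20e-04), its reads with Ndufa12-ps and Rabgef1 counted under both. Uqcr11 rose by 1.498 (0.00122), Cox5b by 1.11 (0.00137), Cox7b2 by 2.51 (0.00501), Atp5a1 by 0.69 (0.0386) and Cox6c by 0.79 (0.0440). The total of Cox6c likewise counts its reads with Gm16399 and Car1 under both. It was 84.2 and 62.9 CPM in the controls and 91.4 and 158 in differentiation.

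The difference between the within-RNA and the between-RNA change was tested directly for the 8 members with enough counts of both, and 0 passed. Ndufs4 had a difference of 1.47 (SE 0.26, unadjusted p = 8.25e-04 by edgeR's quasi-likelihood test), with an adjusted p of 0.131. Over all 3151 RNAs 0.00% were called, 0.131 was the lowest adjusted p, 610 had an unadjusted p under 0.05, and the median difference was 0.35. Ndufs1 (1.20, adjusted p = 0.227) and Atp5c1 (0.89, adjusted p = 0.210) lay on the same side as Ndufs4 and Ndufa12 (-1.92, adjusted p = 0.166) on the other. These 4 were the members at an unadjusted p under 0.05; no other tool was run on this difference.

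**Figure D4:**
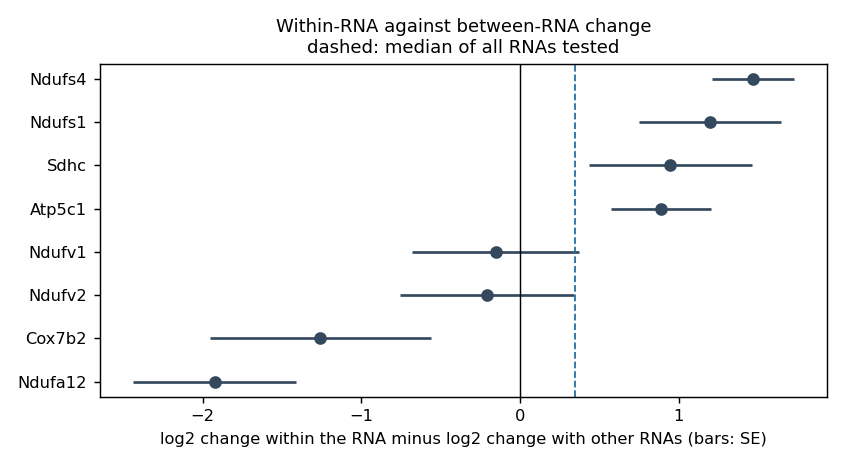
Log2 change of within-RNA contacts minus log2 change of between-RNA contacts (x axis, bars: SE) for the 8 members tested. Ndufs4 lies at 1.47 and Ndufa12 at -1.92, on either side of the median of 0.35 over all RNAs (dashed), and no member passed after adjustment.

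Genes that work beside the complexes but fall outside the name rule were read from the same fit of contact totals. Of these, 54 were tested, 3 were higher and 1 was lower, where 5.44% and 6.75% of all RNAs were. The count of rises is thus close to the background. In the citric acid cycle and pyruvate dehydrogenase list, 2 of 13 tested were higher and 1 lower, with a median of 0.12. Cs, citrate synthase, rose from 120 ± 1.09 to 180 ± 17.5 CPM (SD, n = 2; log2 change 0.59, adjusted p = 0.0447 by edgeR's quasi-likelihood test). Suclg2, the GTP-forming subunit of succinyl-CoA ligase, fell from 40.7 ± 11.2 to 15.8 ± 0.497 CPM (-1.35, adjusted p = 0.0197). Of 4 tested complex I assembly factors, Aifm1, which brings an import factor for respiratory proteins to the membrane, rose from 54.7 ± 1.17 to 92.7 ± 11.9 CPM (0.75, adjusted p = 0.0326), and the median of the list was -0.48. All calls in these lists were lost when either control was left out.

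The remaining lists had no call by edgeR's quasi-likelihood test. The list of assembly factors of complexes II to V had 18 tested genes, a median of 0.03 and 3 with an unadjusted p under 0.05, and its members of largest mean count, Taco1 and Cox10, were at -0.20 (adjusted p = 0.480) and 0.28 (0.317). Carriers and porins had 6 tested genes and a median of 0.14, with Vdac2 at 0.32 (0.341) and Slc25a3 at -0.07 (0.892). Mitochondrial biogenesis had 12 tested genes and a median of -0.00, with Nrf1, the factor that binds the NRF1 motif, at 0.07 (0.827) and Ppargc1b, a coactivator of respiratory genes, at -0.50 (0.250). Cyc1, the cytochrome of complex III that the name rule leaves out, was at 0.06 (0.956). Only Polrmt of the biogenesis list and none of the carriers or Cyc1 had an unadjusted p under 0.05.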

How the data were processed

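Whole-number counts of chimeric reads per RNA pair and library were used as deposited by the authors, in a table of the whole series; 0 columns of it were left unused. STAR and GRCm38 were named, without version or role, per the submitters' processing notes; duplicate, strand and multi-mapping rules are not given in the sources used here. Members and lists were chosen with earlier results of these data known. In RefSeq on GRCm38.p6, 70 members were found by symbol and 3 by synonym.

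Contact totals and pairs were tested with edgeR 4.0.16 in R 4.3.3 (TMM, minimum count 5, minimum total 10, two-sided, Benjamini-Hochberg over all features, threshold 0.05); a between-RNA pair enters both of its RNAs' totals. CPM of totals, of pairs and of between-RNA totals are on separate scales and do not account for RNA length. The within against between difference was the type by group term, with 1 TMM factor per library. The biological coefficient of variation was 18.7% for totals and 24.9% for pairs. Replicates differed beyond sampling noise (chi-square per degree of freedom 8.12 for controls, 13.3 for differentiation). Scripts were tested on simulated data.

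Named are members past the threshold, the 5 of largest sum, the 3 largest rises and falls, isoform sets, up to 10 called pairs, the 6 pairs of largest sum, and up to 4 called or 2 most abundant genes of each other list. The values of 1 gene that this rule takes are not reported here. Ndufa12, Atp5a1, Cox6c, Ndufaf7 and Polrmt were chosen once their values were known. The alternatives tried were other filters, RLE scaling, column totals only, DESeq2 1.42.0, a replicate block, leaving out libraries, Neat1 pairs, hub pairs, pairs of 2 members or the 3 largest members, and between-RNA pairs only. Fits that leave out a library take the spread from the other group. An exact permutation test of 2 against 2 libraries cannot go below p = 0.333.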

Additional observations from a re-analysis of the deposited data

How the results depend on the processing

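The cause of each change given here was not tested, except that fewer libraries or RNAs enter a fit that leaves some out. The 4 contact totals called higher became 7 with column totals only, 2 without pseudogene partners (chosen after seeing the data) and 0 to 9 when a library was left out, while the count of 0 lower became 1, Ndufs4, with between-RNA pairs only and stayed 0 under the other alternatives. The 3 within-RNA pairs called became 1 with column totals only and 0 to 6 when a library was left out. Between-RNA pairs called higher ranged from 0 to 6 and lower from 0 to 1 when a library was left out, and DESeq2 called 0 lower. In the other pathway lists the ranges were 0 to 4 higher and 0 to 2 lower. The members' median log2 change of 0.48 was 0.24 with no filter (all 73 members), 0.27 without pairs of 2 members, 0.22 without pseudogene partners, and 0.22 to 0.61 when a library was left out. Without the 3 members of largest sum the mean share of counts in member pairs was 0.110% in control and 0.174% in differentiation, and hub RNAs held 49.7% (control) and 40.4% (differentiation) of the between-RNA counts of the remaining members. Sign changed only in values that did not pass the test, apart from Ndufs4 at -0.96 with between-RNA pairs only. With between-RNA pairs only, Atp5c1 was at -0.48, Ndufs1 at -0.28 and Sdhc at -0.062. When a library was left out, totals ranged from -0.13 to 0.25 for Atp5c1, -0.33 to 0.39 for Cox7a2l, -0.23 to 1.22 for Cox8a, -0.87 to 0.14 for Ndufaf2, -1.02 to 0.17 for Ndufs3, -0.025 to 0.40 for Ndufs4 and -2.10 to 0.10 for Sdhb, and within-RNA pairs from -0.75 to 0.40 for Ndufa12 and -0.089 to 0.58 for Ndufv2.

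Replicate numbers are not stated to pair the samples, and deviations of the libraries numbered 1 correlated at 0.139 over 10993 RNAs, with only 2 pairs. With the replicate number as a block, 6 totals were higher and 0 lower (Sdhc and Ndufs1 added, adjusted p = 0.0338 and 0.0467), 4 within-RNA pairs were higher (Ndufaf7 added, 0.0450), and between-RNA pairs gave 6 higher and 1 lower. Depth limits all of this: 20 of the 73 members could not be tested.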
